A study of Oryza sativa Japonica Group and Oryza sativa Indica Group with 16 samples.

Results

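The HOX genes of rice encode homeodomain leucine zipper transcription factors, known as HD-Zip proteins. The members described here are the probe sets with a single annotated gene whose symbol or synonym, without a leading Os, is HOX followed by a number. There were 25 such genes among 17905 that have a probe set of their own, and they had 33 of the 57381 probe sets of the array. The annotation holds 26 genes named in this way, and HOX3 is the one to which no probe set is listed here. By their known grouping 16 probe sets (12 genes) belong to subfamily HD-Zip I, 11 (8 genes) to HD-Zip II and 6 (5 genes) to HD-Zip III. HOX5, HOX7, HOX10, HOX16, HOX19 and HOX20 have more than 1 probe set, which share a gene and are not independent. On this array type, the ending s_at marks probes shared between genes and x_at marks probes that may also match other transcripts, so values of such probe sets can hold signal of related genes.

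The samples were flag leaves of IRAT109, an upland japonica cultivar labelled drought-resistant, and of ZS97, a paddy indica cultivar labelled drought-sensitive. The plants stood in pipes, and the middle of the blade of green flag leaves was taken in the reproductive stage before flowering, ahead of the stress (D0) and at slight (D1), moderate (D2) and severe (D3) drought. Leaf relative water content stood at 94% to 95% (D0), 83% to 88% (D1), 74% to 78% (D2) and 65% to 69% (D3). Each of the 8 groups had 2 biological replicates, which gave 16 arrays. No group holds watered leaves sampled alongside D1 to D3, so drought and the time that passed cannot be told apart.

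A homeodomain binds DNA and the leucine zipper next to it lets these proteins pair, and HD-Zip proteins occur in plants only. HD-Zip I genes are known for responses to water deficit and abscisic acid, the hormone that closes stomata in dry leaves. HD-Zip II genes are known for shade and auxin responses and often encode repressors. HD-Zip III genes shape vascular tissue and the upper leaf face, and their transcripts are cut by the microRNA miR166.

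Values are the signal intensities deposited for each probe set on a linear scale. Changes are differences of log2(intensity + 16), given with the standard error of 1 limma model over all 57381 probe sets. A probe set was called at an adjusted p under 0.05 and a fold change over 2. A drought change without a named stage averages the 3 drought stages and subtracts D0. Replicate arrays correlated at 0.9971 to 0.9983 across all probe sets, and no array stood apart. Of the green leaf markers, the brightest probe set of RBCS read 9180 to 21800 and PORB read 1960 to 4450, while the 6 probe sets of the shoot meristem stayed at 52.4 or below. Not every green leaf probe set was bright, as RBCS1 read 6.6 to 9.6 and the dimmest of RBCS 11.4 to 26.2. The summed leaf markers (12 probe sets) were 37100 to 37900 at D3 and 72500 to 73800 at D0 in IRAT109, and 29700 to 29800 at D3 and 76500 to 79500 at D0 in ZS97. The 13 panicle and flower probe sets summed to 2370 to 2440 at D3 and 2390 to 2620 at D0 in IRAT109, and to 2120 to 2130 at D3 and 2270 to 2320 at D0 in ZS97. Of these, LOC4343851, which has MADS18 and MADS2 among its synonyms, read 1110 to 2060. MADS16 read 211 to 743 and was called upward in IRAT109 (1.20 ± 0.0682), and MADS1 read 36.5 to 440 and was called downward in ZS97 (-1.60 ± 0.0854), while FZP, MADS13 and MADS58 stayed at 9.1 or below. The summed 5 epidermis markers were 2540 to 2910 at D3 and 3630 to 3710 at D0 in IRAT109, and 1860 to 1940 at D3 and 3120 to 3210 at D0 in ZS97. Their members did not move together. ROC1, ROC2 and ROC5 changed by -0.51 to -0.35 in IRAT109 and -0.91 to -0.77 in ZS97. ROC4 was called upward in both genotypes (1.26 ± 0.0696 and 1.16 ± 0.0696), and ROC3 stayed at 13.5 or below. In whole leaves, fewer cells of a type and less RNA per cell cannot be told apart.

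In droughted leaves a few HOX genes were raised many-fold, HOX33 was lowered, and most of the family was not called. Of 33 probe sets, IRAT109 had 6 upregulated and 1 downregulated, beside 2.97% and 4.07% of all probe sets. In ZS97 the counts were also 6 and 1, beside 3.32% and 3.54% of all probe sets. HOX22, HOX24, HOX29 and HOX6 were raised in both genotypes, HOX10 and HOX17 were called in IRAT109, and both probe sets of HOX7 were called in ZS97. The median change of the 33 probe sets was 0.20 in IRAT109 and 0.01 in ZS97, and the medians of all probe sets were 0.01 and -0.01. By stage, 7, 6 and 10 members were called at D1, D2 and D3 in IRAT109 (6.25%, 7.32% and 8.2% of all probe sets) and 6, 8 and 8 in ZS97 (5.44%, 7.26% and 8.39%). Over all stages and the mean change, 12 probe sets of 11 genes were called against D0 in either genotype, and 21 probe sets were not called in any of these comparisons. The share of all probe sets called in any of these comparisons was not counted. The shares above are for single comparisons and cannot be set beside this count. The stages of 1 genotype share its D0 arrays. By subfamily, 3 of 16 HD-Zip I probe sets were upregulated in each genotype, 1 of 11 HD-Zip II probe sets in IRAT109 and 2 of 11 in ZS97, and 2 of 6 HD-Zip III probe sets in IRAT109 and 1 of 6 in ZS97. The part of the falling green leaf markers in these values was not tested.

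**Figure D1:**
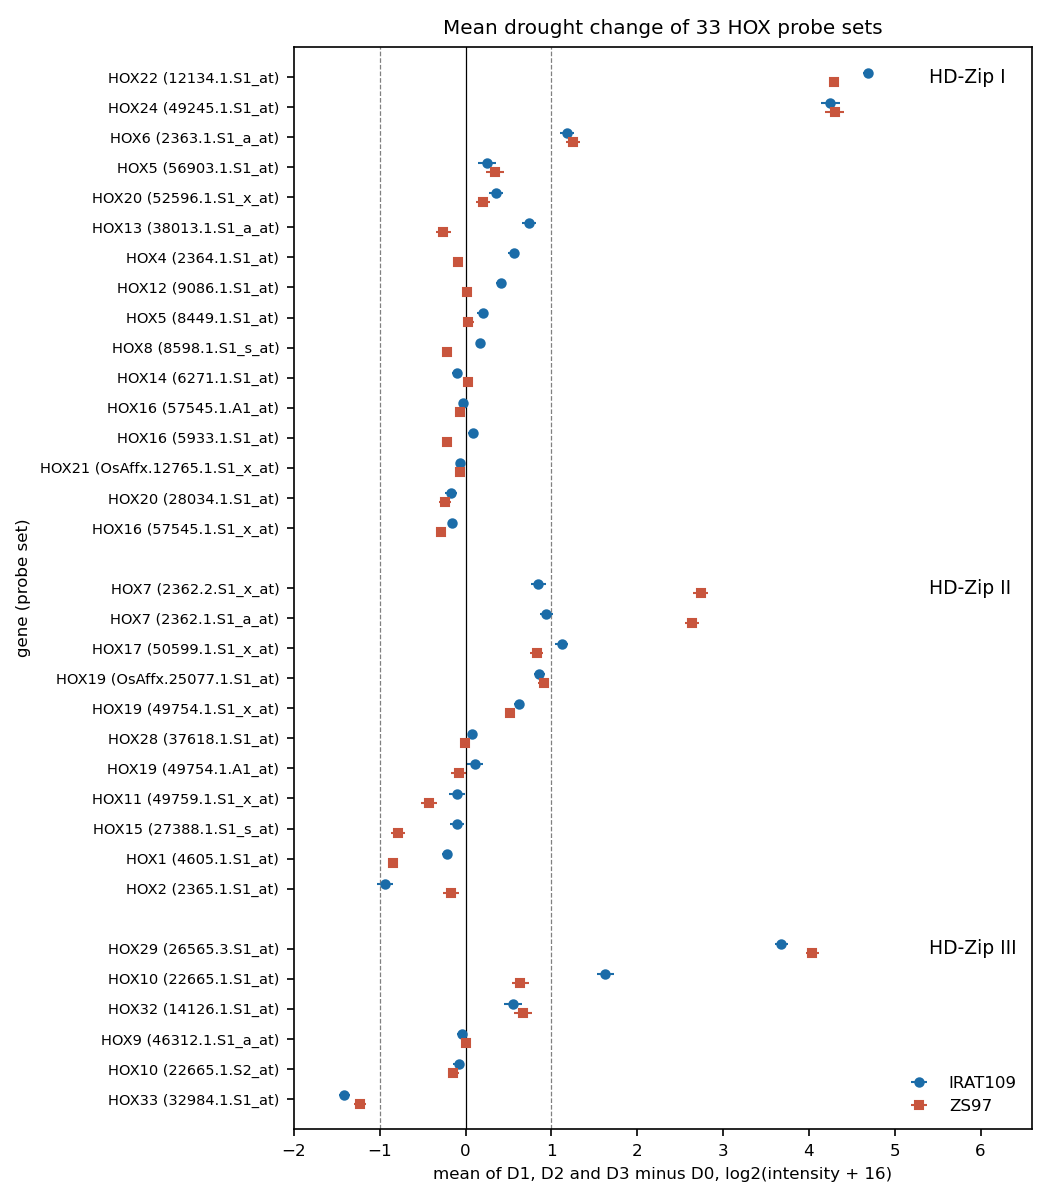
Mean drought change of the 33 HOX probe sets, on the x axis as the difference in log2(intensity + 16) between D1 to D3 and D0, for IRAT109 (circles, upper of each pair) and ZS97 (squares). Bars are standard errors of the model and dashed lines mark a 2-fold change; HOX22, HOX24 and HOX29 lie above 3.6 in both genotypes, and HOX33 lies below -1.2.

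HOX22 and HOX24, HD-Zip I genes known to respond to drought, salt and abscisic acid, showed the largest rises of the family together with HOX29. HOX22 (LOC4336542) had intensities of 84.4 and 75.5 at D0, 1540.5 and 1437 at D1, 2215 and 2151 at D2 and 4662 and 4508 at D3 in IRAT109. ZS97 gave 139.9 and 155 at D0, 1997 and 1922 at D1, 4078.5 and 3777 at D2 and 4069 and 4210.3 at D3. Every droughted array lay above every D0 array of its genotype, and the lowest of them read 1437. The rise was 4.69 ± 0.0559 in IRAT109 (adjusted p = 5.64e-15) and 4.29 ± 0.0559 in ZS97 (adjusted p = 1.39e-14). The change was larger in IRAT109 by 0.41 ± 0.079 (adjusted p = 0.00219), which is under the 2-fold threshold.

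HOX24 (LOC4330155) started near the dim end of the array, at an intensity close to the constant of 16. It had 18.1 and 15.6 at D0, 290.3 and 237.5 at D1, 486 and 484 at D2 and 1632 and 1805 at D3 in IRAT109. It had 25.9 and 13.6 at D0, 472 and 440.3 at D1, 786 and 658 at D2 and 945 and 931 at D3 in ZS97. The highest D0 array read 25.9 and the lowest droughted array 237.5. The rise was 4.25 ± 0.114 in IRAT109 (adjusted p = 6.29e-12). In ZS97 it was 4.30 ± 0.114 (adjusted p = 5.74e-12), and the difference between the genotypes was -0.05 ± 0.161 (adjusted p = 0.882). This mean joins stages of opposite sign. By stage the difference was -0.66 at D1, -0.45 at D2 and 0.96 at D3, none of them called. With a constant of 1 or with quantile normalization, the D3 differences of both HOX24 and HOX22 were called. The size of the mean rise depends on the constant, since D0 was dim. A constant of 1 gave 5.08 in IRAT109 and 5.09 in ZS97, and a constant of 64 gave 3.08 and 3.15.

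HOX6 (LOC4347647), another drought-responsive HD-Zip I gene, rose by less. Its intensities were 224 and 228 at D0, 511 and 452 at D1, 477.5 and 429 at D2 and 638 and 761 at D3 in IRAT109. Intensities in ZS97 were 282 and 268 at D0, 696 and 620.3 at D1, 726 and 622 at D2 and 691 and 702.5 at D3. Droughted and D0 arrays did not overlap in either genotype. The rise was 1.18 ± 0.0807 in IRAT109 (adjusted p = 5.59e-08) and 1.25 ± 0.0807 in ZS97 (adjusted p = 3.47e-08). At D2 in IRAT109 the change of 0.95 ± 0.0988 fell short of 2-fold, whereas all other stages were called. The D1 call in IRAT109 was lost with a constant of 64.

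**Figure D2:**
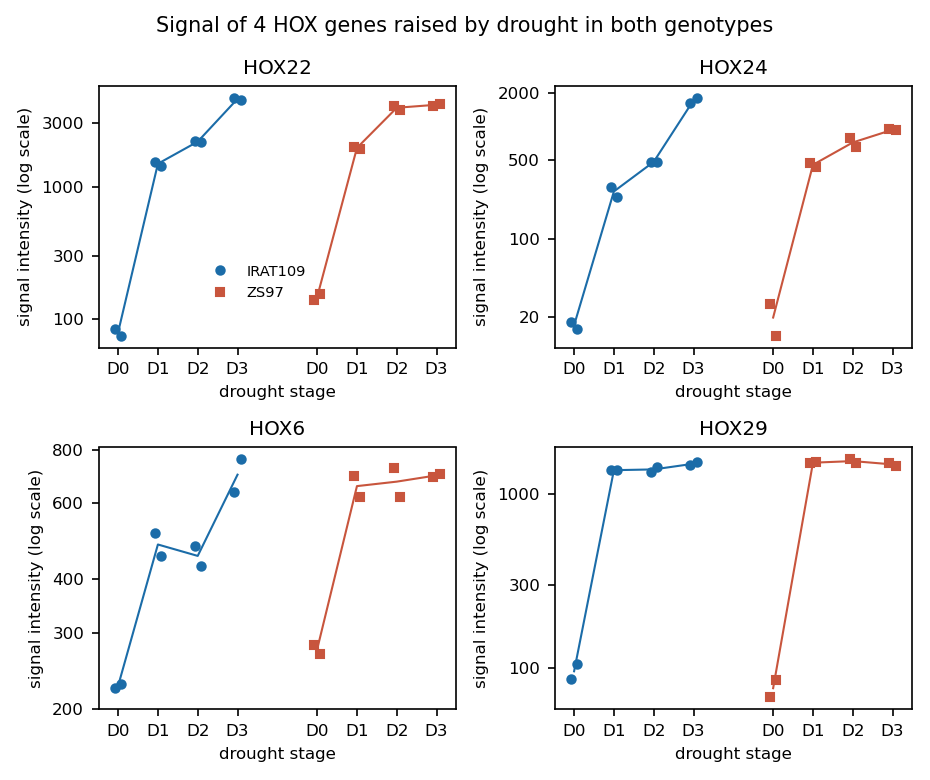
Signal intensity on a log scale for HOX22, HOX24, HOX6 and HOX29 over the drought stages D0 to D3, for IRAT109 (circles, left) and ZS97 (squares, right). Points are the 2 arrays of a group and lines join group means; HOX22 and HOX24 climbed on to D3 in IRAT109, while HOX29 reached its level at D1.

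The step from D2 to D3 differed between the genotypes for HOX24. From D2 to D3, HOX24 rose by 1.79 ± 0.14 in IRAT109 (adjusted p = 4.06e-06), and the same step was 0.38 ± 0.14 in ZS97 (adjusted p = 0.203). The difference between these steps was 1.41 ± 0.197 (adjusted p = 0.00103), a test added after the steps had been seen. HOX22 rose by 1.06 ± 0.0684 over the same step in IRAT109 (adjusted p = 8.17e-07) with 0.08 ± 0.0684 in ZS97, and its difference of 0.99 ± 0.0968 was just short of 2-fold. From D1 to D2 the order was the other way round for HOX22, with 0.55 ± 0.0684 in IRAT109 and 1.0 ± 0.0684 in ZS97, neither of them called. These were the 2 members called from D2 to D3 in IRAT109, where 0.627% of all probe sets were called. From D2 to D3 in ZS97 limma called 0 members (9 at an unadjusted p under 0.05). From D1 to D2 it called 0 in each genotype (11 at an unadjusted p under 0.05 in IRAT109 and 14 in ZS97). Background shares for these steps were 0.228%, 0.134% and 0.716%. The difference of the steps from D2 to D3 was called for 0.709% of all probe sets and 1 member, HOX24. For the step from D1 to D2 it was called by limma for 0.821% of all probe sets and 0 members (12 at an unadjusted p under 0.05). Shares of all probe sets at an unadjusted p under 0.05 were not counted for these steps.

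HOX29 (LOC4327348), an HD-Zip III gene also named OSHB5, was raised at D1 and kept a similar level to D3. It had 86.2 and 106 at D0, 1367.5 and 1365 at D1, 1341 and 1419 at D2 and 1462 and 1513 at D3 in IRAT109. It had 68.1 and 85.3 at D0, 1503 and 1514 at D1, 1576 and 1506 at D2 and 1498 and 1451 at D3 in ZS97. All 12 droughted arrays lay between 1341 and 1576, and the 4 D0 arrays between 68.1 and 105.6. The rise was 3.68 ± 0.0733 in IRAT109 (adjusted p = 4.62e-13) and 4.04 ± 0.0733 in ZS97 (adjusted p = 1.89e-13), with changes at D1, D2 and D3 of 3.63, 3.65 and 3.75 in IRAT109 and 4.05, 4.08 and 4.01 in ZS97. HOX22, HOX24 and HOX29 were the 3 members upregulated at every stage in both genotypes. The share of all probe sets with this pattern was not counted.

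HOX33 (LOC4352777), an HD-Zip III gene known to delay leaf senescence, was downregulated in both genotypes. It had 281 and 277 at D0, 114.5 and 107 at D1, 92.1 and 106 at D2 and 71.4 and 83.0 at D3 in IRAT109. It had 243.5 and 269.6 at D0, 119 and 132 at D1, 89.2 and 92.5 at D2 and 84.4 and 92.1 at D3 in ZS97. All droughted arrays lay below all D0 arrays, and the lowest array of each genotype was at D3. The change was -1.41 ± 0.0678 in IRAT109 (adjusted p = 1.68e-09) and -1.23 ± 0.0678 in ZS97 (adjusted p = 7.13e-09), and the difference between the genotypes was -0.19 ± 0.0959 (adjusted p = 0.197). At D1 in ZS97 the change of -0.94 ± 0.0831 had not yet reached 2-fold. With a constant of 64 the mean change in ZS97 was -0.96 and was no longer called, and neither was D1 in IRAT109.

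The probe sets of HOX10 (LOC4331345), an HD-Zip III gene also named OSHB1, gave different results. The probe set whose name ends in S1_at had 25.5 and 24.5 at D0, 114 and 91.7 at D1, 138 and 123 at D2 and 86.5 and 121 at D3 in IRAT109. The ZS97 replicates had 30.8 and 30.0 at D0, 52.2 and 57.6 at D1, 45.5 and 51.9 at D2 and 68.4 and 65.0 at D3. Its droughted arrays lay above D0 in both genotypes, further above in IRAT109. The rise was 1.63 ± 0.0984 in IRAT109 (adjusted p = 1.63e-08), and the change of 0.64 ± 0.0984 in ZS97 stayed below 2-fold. The difference between the genotypes was 0.99 ± 0.139 for the mean (adjusted p = 0.000188), short of 2-fold, and was called at D2 with 1.36 ± 0.17 (adjusted p = 8.17e-05). The probe set whose name ends in S2_at overlapped between drought and D0 in both genotypes, with changes of -0.08 ± 0.0666 in IRAT109 and -0.14 ± 0.0666 in ZS97. With a constant of 64 the S1_at rise in IRAT109 became 0.98 and was not called, nor were its D1 and D3 changes. Which transcripts each probe set measures was not tested.

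**Figure D3:**
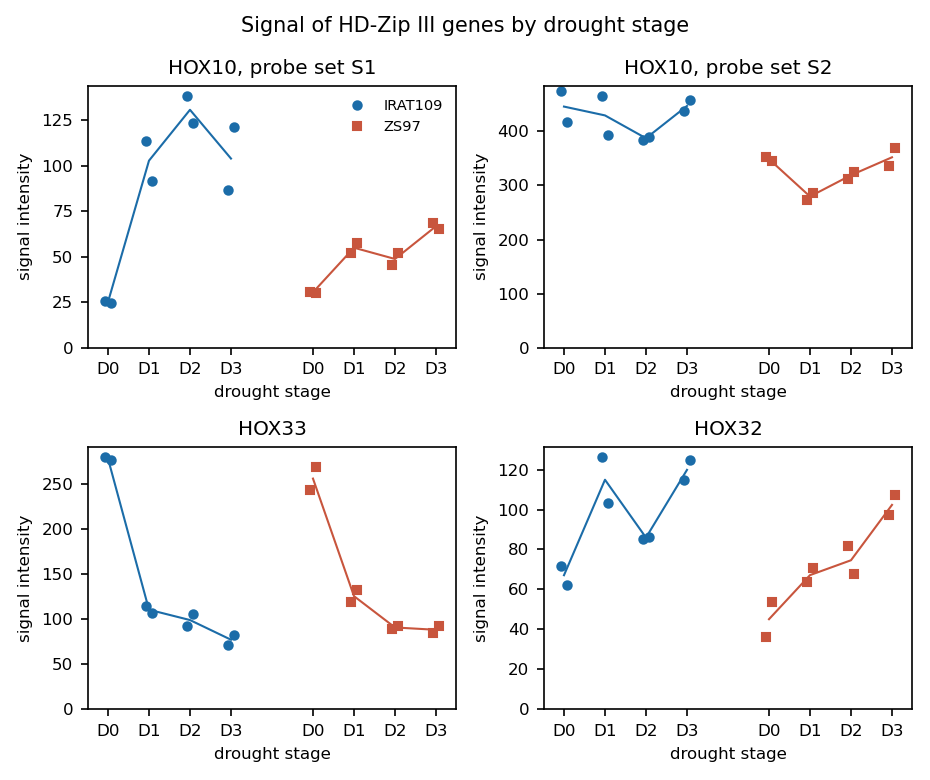
Signal intensity over the drought stages D0 to D3 for both HOX10 probe sets, HOX33 and HOX32, for IRAT109 (circles, left) and ZS97 (squares, right). Points are the 2 arrays of a group and lines join group means; HOX33 lies lower at D1 to D3 than at D0 in both genotypes, and droughted arrays lie above D0 for HOX10 in the S1 panel and overlap with it in the S2 panel.

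Of the other HD-Zip III genes, HOX32 (LOC4333544), known for a role in leaf shape, was not called at any stage. Its intensity was 71.9 and 62.3 at D0, 127 and 103 at D1, 85.5 and 86.4 at D2 and 115 and 125 at D3 in IRAT109, and 36.3 and 53.8 at D0, 63.8 and 70.5 at D1, 81.5 and 67.7 at D2 and 97.3 and 107 at D3 in ZS97. Every droughted array was above D0 of its genotype, and the change was 0.55 ± 0.105 in IRAT109 (adjusted p = 0.000752) and 0.67 ± 0.105 in ZS97 (adjusted p = 0.000163). HOX9, also named OSHB2, overlapped between drought and D0, with changes of -0.04 ± 0.0577 in IRAT109 and 0.01 ± 0.0577 in ZS97. Since these genes are known in vascular tissue, the secondary wall genes CESA4, CESA7 and CESA9 of xylem were read beside them. Summed over their 4 probe sets they gave 892 to 920 (D1), 560 to 570 (D2) and 650 to 656 (D3) in IRAT109, against 387 to 423 (D0). The ZS97 sums were 1010 to 1060 (D1), 739 to 761 (D2) and 686 to 698 (D3), against 339 to 344 (D0). At D1, 2 of the 4 were called upward in IRAT109 (0.84 to 1.28 over the list) and 2 in ZS97 (0.89 to 2.22). Of all 57381 probe sets, 1649 in IRAT109 and 1419 in ZS97 were called upward at D1. On the mean change 1 of the 4, for CESA4, was called in ZS97 (1.85 ± 0.0647), beside 3.32% of all probe sets called upward. The 4 lay between 0.56 and 0.76 in IRAT109. This CESA4 probe set also differed between the genotypes (-1.08 ± 0.0916). The other CESA4 probe set gave 0.76 ± 0.0721 in ZS97 and a difference of -0.2 ± 0.102 between the genotypes, neither of them called. The part of xylem in the HD-Zip III values was not tested.

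HOX7 (LOC4329705), an HD-Zip II gene, was called different between the genotypes in its mean drought change, on both of its probe sets. No other member was called, but HOX10 and HOX13 lay at the 2-fold limit (0.99 and 1.0). Both were added, for a count of 4, when IRAT109 D1 replicate 2, D2 replicate 2 or D3 replicate 1 or ZS97 D3 replicate 1 was left out, and a constant of 1 gave 5. The probe set ending in a_at had 68.5 and 68.9 at D0, 125 and 128 at D1, 144 and 132 at D2 and 174 and 187 at D3 in IRAT109. Its ZS97 values were 23.2 and 34.1 at D0, 232 and 220.3 at D1, 293 and 268 at D2 and 288 and 269.9 at D3. IRAT109 lay above ZS97 at D0 and below it at each drought stage. The change in IRAT109 was 0.94 ± 0.078 (adjusted p = 3.81e-07), short of 2-fold, and the rise in ZS97 was 2.64 ± 0.078 (adjusted p = 1.55e-11). The difference was -1.70 ± 0.11 (adjusted p = 2.34e-07). The probe set ending in x_at gave 0.85 ± 0.0856 in IRAT109, 2.74 ± 0.0856 in ZS97 and a difference of -1.89 ± 0.121 (adjusted p = 2.07e-07). The interaction was called downward for 1.87% and upward for 1.2% of all probe sets, and for 2 and 0 of the 33 members.

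The HOX7 difference was present from D1 on. The interaction was -1.70 ± 0.135, -1.88 ± 0.135 and -1.52 ± 0.135 at D1, D2 and D3 for the a_at probe set. It was -1.98, -2.01 and -1.68 for the x_at probe set, and all of these were called, beside 1.59%, 2.65% and 2.11% of all probe sets called downward. HOX7 reached a 2-fold change in IRAT109 at D3 only, with 1.21 ± 0.0955 and 1.19 ± 0.105 (adjusted p = 2.82e-07 for the first and adjusted p = 8.43e-07 for the second), and with a constant of 64 these D3 calls were lost. At D0, whose arrays enter every interaction, IRAT109 exceeded ZS97 by 0.93 ± 0.0955 and 0.99 ± 0.105.

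**Figure D4:**
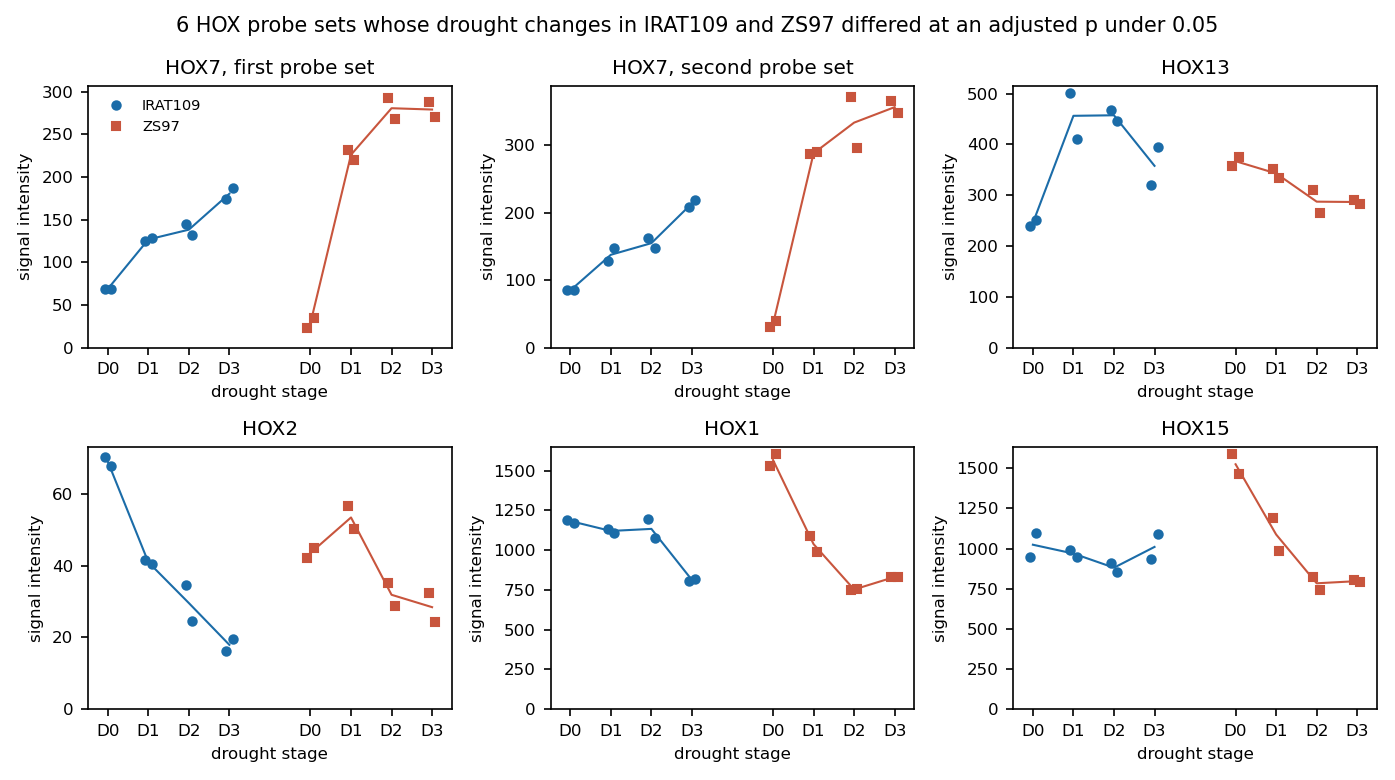
Signal intensity over the drought stages D0 to D3 for both HOX7 probe sets (a_at first, x_at second), HOX13, HOX2, HOX1 and HOX15, in IRAT109 (circles, left) and ZS97 (squares, right). Points are the 2 arrays of a group and lines join group means; HOX7 starts lower and ends higher in ZS97, and HOX13 lies above D0 under drought in IRAT109 and below D0 in ZS97.

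HOX13 (LOC4331890), an HD-Zip I gene, lay on opposite sides of D0 under drought in the 2 genotypes, with no call in either. It had 239.8 and 251 at D0, 502 and 411 at D1, 468.5 and 446 at D2 and 320.5 and 395 at D3 in IRAT109. It had 358 and 376 at D0, 351 and 335 at D1, 311 and 264 at D2 and 290.0 and 283 at D3 in ZS97. Droughted arrays lay above D0 in all 6 cases in IRAT109 and below D0 in all 6 cases in ZS97. The share of all probe sets with such an opposite pattern was not counted. The change was 0.74 ± 0.0867 in IRAT109 (adjusted p = 1.14e-05) and -0.26 ± 0.0867 in ZS97 (adjusted p = 0.033). The difference of 1.0 ± 0.123 (adjusted p = 6.52e-05) fell just short of the 2-fold threshold, and at D2 it was called with 1.20 ± 0.15 (adjusted p = 8.2e-05). HOX13 and HOX10 were the 2 members called upward at D2, where 1.54% of all probe sets were called upward. At D1 and D3, with 1.26% and 1.3% upward, limma called 0 members upward, and 20 and 16 members had an unadjusted p under 0.05 in either direction. The share of all probe sets at that unadjusted threshold was not counted.

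HOX1, HOX15 and HOX2 are HD-Zip II genes that read lower in part of the droughted leaves, at changes mostly short of 2-fold. HOX1 (LOC4349388), known for roles in vascular differentiation and tiller angle, had 1192 and 1173 at D0, 1132 and 1108.5 at D1, 1193 and 1073 at D2 and 808 and 815 at D3 in IRAT109. The ZS97 arrays read 1529.6 and 1602 at D0, 1089 and 985 at D1, 751 and 753 at D2 and 833 and 829 at D3. It was downregulated at D2 in ZS97 (-1.04 ± 0.0627, adjusted p = 2.32e-08), where its D3 change was -0.90 ± 0.0627. The D2 call of HOX1 in ZS97 was lost with a constant of 64. In IRAT109 both D3 arrays also lay below D0 (-0.53 ± 0.0627, adjusted p = 1.32e-05), short of 2-fold. Its mean change was -0.22 ± 0.0512 in IRAT109 and -0.84 ± 0.0512 in ZS97. The difference of 0.62 ± 0.0724 (adjusted p = 4.21e-05) was under 2-fold.

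HOX15 (LOC4347946) had 949 and 1099 at D0, 989.8 and 948 at D1, 909 and 853 at D2 and 932 and 1088.5 at D3 in IRAT109. ZS97 gave 1588 and 1463 at D0, 1191 and 984 at D1, 824 and 744 at D2 and 804 and 790.4 at D3. Arrays overlapped between drought and D0 in IRAT109 and did not in ZS97. The change was -0.10 ± 0.0839 in IRAT109 (adjusted p = 0.41) and -0.79 ± 0.0839 in ZS97 (adjusted p = 4.87e-06), with a difference of 0.68 ± 0.119 (adjusted p = 0.000967). The only probe set of HOX15 ends in s_at, so its values can hold signal of related genes.

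HOX2 (LOC4340070) was the HD-Zip II gene called downward in IRAT109. Its intensities were 70.2 and 67.8 at D0, 41.5 and 40.4 at D1, 34.5 and 24.6 at D2 and 16.3 and 19.5 at D3 in IRAT109. Intensities in ZS97 were 42.2 and 44.8 at D0, 56.5 and 50.3 at D1, 35.1 and 28.6 at D2 and 32.4 and 24.4 at D3. It was downregulated at D3 in IRAT109 (-1.33 ± 0.11, adjusted p = 4.41e-07) and not called at any stage in ZS97, where the D3 change was -0.43 ± 0.11 (adjusted p = 0.00732). Its only call, at D3 in IRAT109, was lost with a constant of 64. The difference of the mean change was -0.76 ± 0.126 (adjusted p = 0.000686). HOX2 lies next to HOX28 on chromosome 6 in the RefSeq annotation of assembly ASM3414082v1, with 0 genes between them. The HOX28 probe set stayed at 6.8 to 9.5 on all arrays, too dim to follow.

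HOX17 and HOX19 are further HD-Zip II genes that were called upward in part. HOX17 (LOC4336580) had 16.1 and 18.3 at D0, 74.2 and 59.2 at D1, 63.0 and 67.8 at D2 and 36.2 and 45.1 at D3 in IRAT109. The ZS97 replicates had 26.3 and 25.5 at D0, 61.3 and 64.7 at D1, 58.9 and 54.7 at D2 and 58.7 and 54.3 at D3. No droughted array overlapped with D0. The rise was 1.12 ± 0.0743 in IRAT109 (adjusted p = 4.08e-08) and the change in ZS97 was 0.83 ± 0.0743 (adjusted p = 8.42e-07), short of 2-fold, and the difference was 0.29 ± 0.105 (adjusted p = 0.0666). With a constant of 64 the IRAT109 value was 0.57 and was not called. Both D0 arrays of IRAT109 were near the constant of 16. The only probe set of HOX17 ends in x_at, so its values can hold signal of related genes.

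HOX19 (LOC4332147) has 3 probe sets, of which the OsAffx one was called at D3. It had 54.0 and 52.3 at D0, 85.6 and 73.3 at D1, 114 and 109 at D2 and 151 and 142 at D3 in IRAT109. Its ZS97 values were 63.9 and 62.3 at D0, 111.5 and 118 at D1, 118 and 136.5 at D2 and 168 and 151 at D3. The D3 change was 1.23 ± 0.0788 in IRAT109 (adjusted p = 3.61e-08) and 1.15 ± 0.0788 in ZS97 (adjusted p = 7.22e-08). Both D3 calls were lost with a constant of 64. The x_at probe set of HOX19 changed by 0.98 and 0.64 at D3 in IRAT109 and ZS97, and the one ending in A1_at by 0.16 and -0.12. Neither of these was called.

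Before drought, limma called 0 of 33 members different between IRAT109 and ZS97, beside 3.07% of all probe sets higher and 1.8% lower in IRAT109. At an unadjusted p under 0.05 there were 18 members, and 15 had an adjusted p under 0.05, of which 7 were higher and 8 lower in IRAT109. The shares above are for calls with the 2-fold threshold, and shares of all probe sets without it were not counted. The largest differences were those of the HOX7 probe sets, given above, and HOX22, which had 84.4 and 75.5 in IRAT109, against 139.9 and 155 in ZS97 (-0.77 ± 0.0684, adjusted p = 1.78e-06). HOX20 followed with 0.61 ± 0.0837 for its S1_at probe set and -0.06 ± 0.1 for the x_at probe set, so they disagreed. The HOX7 group means at D0 were 68.7 in IRAT109 and 28.6 in ZS97 on a_at, and 84.6 and 35.0 on x_at, so the intensities differed by more than 2-fold while the values with the constant of 16 did not. With a constant of 1, or without ZS97 D0 replicate 2, both HOX7 probe sets were called and the count was 2. Whether the probes match the sequence of both genotypes equally was not tested.

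The remaining members were not called in any comparison against D0. Among the 21 probe sets without a call, mean changes lay between -0.79 (HOX15 in ZS97) and 0.74 (HOX13 in IRAT109). HOX4 (LOC4347333), known for gibberellin responses and stem length, had 1985 and 2095 at D0, 3009 and 2939.5 at D1, 3585 and 3361 at D2 and 2488 and 2798 at D3 in IRAT109. The ZS97 arrays read 2085 and 2121 at D0, 1773 and 1561 at D1, 2244 and 2218 at D2 and 2019 and 2153 at D3. All droughted arrays of IRAT109 were above D0 and those of ZS97 overlapped with D0, with changes of 0.56 ± 0.0603 and -0.09 ± 0.0603 and a difference of 0.64 ± 0.0852 (adjusted p = 0.000117). The S1_at probe set of HOX16 lay between 6382 and 9436 on all arrays, with changes of 0.09 ± 0.0562 in IRAT109 and -0.21 ± 0.0562 in ZS97. Its x_at probe set lay between 617 and 927, with -0.16 ± 0.0467 in IRAT109 and -0.28 ± 0.0467 in ZS97, so both HOX16 probe sets stayed well within 2-fold. HOX11, with an x_at probe set only, had differences from D0 of -0.10 ± 0.0935 in IRAT109 and -0.42 ± 0.0935 in ZS97. The HOX20 probe sets differed in sign, with -0.17 ± 0.0684 in IRAT109 and -0.24 ± 0.0684 in ZS97 for S1_at and 0.36 ± 0.0816 and 0.20 ± 0.0816 for x_at.

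No group mean reached 32 for 7 probe sets, which give little information. They are the only probe sets of HOX8, HOX12, HOX14, HOX21 and HOX28, 1 of the 2 of HOX5 and 1 of the 3 of HOX16. HOX8 and HOX21 reached 23.3 and 8.7 at most. HOX12, known for panicle exsertion, reached 22.7 and HOX14, known for panicle development, 13.2. The other 26 probe sets passed this level. The second HOX5 probe set lay between 1167 and 1709, with droughted and D0 arrays overlapping in both genotypes.

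HOX22, HOX24 and HOX6 are known for the abscisic acid response, so genes of that pathway were read beside them. Of 21 probe sets of a list of receptors, phosphatases, kinases, transcription factors and abscisic acid metabolism, IRAT109 had 10 upregulated and 2 downregulated and ZS97 had 10 and 1, where the shares of all probe sets were 2.97% and 4.07% for IRAT109 and 3.32% and 3.54% for ZS97. Their medians were 0.76 and 0.53. The phosphatases, which restrain the pathway, held 5 upregulated of 6 probe sets in each genotype, such as PP2C68 (3.47 ± 0.0684 in IRAT109 and 2.58 ± 0.0684 in ZS97). PYL11, the receptor of the list, had 0.68 ± 0.0445 and 0.53 ± 0.0445 and was not called. Among the SAPK kinases, which pass the signal on, 3 of 10 were upregulated in each genotype, such as SAPK4 (1.85 ± 0.056 in IRAT109 and 1.69 ± 0.056 in ZS97), and SAPK2 was downregulated in both (-1.52 ± 0.0582 and -1.76 ± 0.0582). The bZIP factor gene ABF2, also named OsbZIP23, rose by 1.85 ± 0.0428 in IRAT109 and 1.49 ± 0.0428 in ZS97. VP1, the other transcription factor of the list, was not called, with 0.05 ± 0.0718 in IRAT109 and -0.07 ± 0.0718 in ZS97. ABA8OX1, an enzyme that breaks abscisic acid down, rose by 1.26 ± 0.0597 and 1.37 ± 0.0597, and ABA8OX2, of the same function, fell in IRAT109 (-1.69 ± 0.107) with -0.85 ± 0.107 in ZS97. One probe set of the list, for SAPK1, was called different between the genotypes (-1.12 ± 0.0915).

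Homeobox genes outside the HOX names were read in the same way. Of 32 probe sets for ROC, WOX, KNOX and ZHD genes, IRAT109 had 1 upregulated and 1 downregulated and ZS97 had 2 and 2, and the shares of all probe sets were 2.97% and 4.07% for IRAT109 and 3.32% and 3.54% for ZS97. Their medians were 0.01 and -0.01. ROC4, an HD-Zip IV gene known in wax synthesis of the leaf surface, rose by 1.26 ± 0.0696 in IRAT109 and 1.16 ± 0.0696 in ZS97. HOS59, a KNOX gene, fell in both genotypes (-1.06 in IRAT109 and -1.17 in ZS97). The 8 WOX probe sets lay between -0.17 and 0.67 in IRAT109 and between -0.21 and 0.41 in ZS97, without a call. The difference between these genes and the HOX genes was not tested.

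Across the 8 group means, the named genes most like HOX22 were ELA3 (an early nodulin-like gene), PXG (a peroxygenase) and BGLU32 (a beta-glucosidase), with Pearson correlations of 0.997, 0.992 and 0.991. Those most like HOX24 were UGE-1 (a UDP-glucose epimerase), HSFA6B (a heat stress factor) and TRAB1 (a bZIP factor of the abscisic acid response), at 0.991, 0.989 and 0.986. These correlations describe 8 points each that share arrays, and they were picked as the highest among probe sets with 1 named gene outside the family. ROC4 was also among the 8 highest for HOX24, at 0.981.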

How the data were processed

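Total RNA of flag leaves was hybridised to 16 Affymetrix rice arrays. The deposited values are linear signal intensities per probe set. Per the labels they come from MAS5 and per the methods of the study from RMA, and which one made them was not settled. Intensities were used as deposited, as log2(intensity + 16), and no probe set was left out of the fit. One model of 8 group means over 57381 probe sets was fitted in limma 3.58.1 (R 4.3.3), with p-values adjusted by Benjamini-Hochberg. A probe set was called at an adjusted p under 0.05 and a fold over 2. The rank product test of the study was not rerun, and p under 0.01 without adjustment was an alternative. With 2 arrays a group, the number of arrays limits the precision. Arrays of one number were not treated as pairs in the main fit. Over 28 pairs of groups, deviations of same-numbered arrays correlated at -0.32 to 0.16, and 1 was over 0.1. Negative values reached -0.32 (IRAT109 D1 and D3) and -0.16 (IRAT109 D0 and ZS97 D2), so the check does not show that all arrays were unpaired.

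Genes were named from the platform annotation, updated through RefSeq symbols and synonyms, and 95 probe sets with several symbols were left unnamed. Subfamilies and roles are background knowledge. Members and gene lists were chosen with earlier results of these data known. Values of every array are given for members called on the mean change, its interaction or at D0, and for further members called at 1 stage or set beside them, chosen after their values were seen. Likeness is the Pearson correlation over 8 group means with probe sets of 1 named gene. Alternatives changed the constant (1 or 64), normalization, filter, variance model, threshold, block and arrays.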

Additional observations from a re-analysis of the deposited data

Results flagged for a closer look

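The drought change of HOX7 differed between IRAT109 and ZS97 in the limma test of the difference itself. The interaction was -1.70 for the mean change, -1.70 at D1, -1.88 at D2 and -1.52 at D3 on the probe set ending in a_at. On the one ending in x_at it was -1.89 for the mean change, -1.98 at D1, -2.01 at D2 and -1.68 at D3.

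HOX10 differed between the genotypes at D2 by 1.36 on its S1_at probe set, and HOX13 at D2 by 1.20. HOX13 also lay above D0 on every droughted array of IRAT109 and below D0 on every droughted array of ZS97, with an interaction of 1.0 for the mean change that fell just short of 2-fold. This pattern was looked for among all members, and its share of all probe sets was not counted. The step of HOX24 from D2 to D3 differed by 1.41.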

How the results depend on the processing

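Of 684 values of probe sets called on the mean change, an interaction or the step from D2 to D3, taken under the alternatives, 680 kept their side of the threshold, 4 were no longer called and 0 reversed. All 4 came from a constant of 64: HOX10 (0.98) and HOX17 (0.57) in IRAT109, HOX33 in ZS97 (-0.96) and the HOX10 interaction at D2 (0.87). The unadjusted threshold and the choice of 1 probe set per gene reuse the values of the main fit, so no value could move there. Calls at single stages against D0 are not part of this tally. The larger moves of counts were as follows, and smaller moves are not all listed. The cause was not tested unless the construction shows it. With a constant of 1, the members lowered in IRAT109 were 2 (HOX2 added), those with an interaction of the mean change 5 (HOX2, HOX10 and HOX13 added), at D1 5 and at D3 5, those higher in IRAT109 at D0 2 (both HOX7 probe sets), and those called from D1 to D2 in ZS97 1 (HOX22). With a constant of 64, those lowered in ZS97 were 0 (HOX33 lost), and those called in IRAT109 3 at D1 (HOX6, HOX10, HOX17 and HOX33 lost) and 5 at D3 (HOX2, both HOX7 probe sets, HOX10 and HOX19 lost). That constant also lost HOX17 at D2 in IRAT109, and HOX1 at D2 and HOX19 at D3 in ZS97. Median centring gave 1 higher at D0 (HOX7) and 1 from D1 to D2 in ZS97 (HOX22), and quantile normalization 4 interactions at D3 (HOX22 and HOX24 added). One probe set per gene, which leaves fewer to count, gave 1 interaction for the mean change, 1 (D1), 2 (D2) and 1 (D3).

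With each array left out in turn, 1 group keeps a lone array that is assumed to vary like the other groups. Under these fits 6 to 6 members were raised and 1 to 1 lowered in each genotype. Called members were 6 to 7 (D1), 6 to 7 (D2) and 10 to 11 (D3) in IRAT109, and 6 to 7, 8 to 9 and 8 to 9 in ZS97. Steps gave 0 to 0 from D1 to D2 and 2 to 2 from D2 to D3 in IRAT109, and 0 to 1 and 0 to 0 in ZS97, with HOX22 called without replicate 1 of D1 or replicate 2 of D2. Interactions were 2 to 4 for the mean change, 2 to 4 (D1), 4 to 5 (D2) and 2 to 4 (D3). HOX10 and HOX13 made 4 for the mean change without IRAT109 D1 replicate 2, D2 replicate 2 or D3 replicate 1, or without ZS97 D3 replicate 1. They made 4 at D1 without IRAT109 D1 replicate 2, and HOX15 and HOX24 made 4 at D3 without IRAT109 D3 replicate 1. At D0, 0 to 2 were higher in IRAT109, with both HOX7 probe sets called without ZS97 D0 replicate 2, and 0 to 0 lower. The replicate number as a block left 6 raised and 1 lowered in each genotype and 2 interactions of the mean change, and changed no other call. Dim probe sets near the constant limit what can be followed.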
